A study of Mus musculus with 2 samples.

Results

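The TNF-superfamily costimulators of T cells were taken as 10 genes by their symbols, out of 32285 genes in the deposited tables: the receptors Tnfrsf4, Tnfrsf9, Tnfrsf18, Cd27 and Cd40, and the ligands Tnfsf4, Tnfsf8, Tnfsf9, Cd40lg and Cd70. All 10 were found, and all 10 were among the 10660 genes that passed the filter on low counts. Both single-cell RNA libraries, C-ON (replicate 1) and FMC_new (replicate 2), were made from the optic nerves of Nf1OPG mice at 12 weeks of age, each from a pool of 10 mice. These mice carry a floxed and a mutant Nf1 allele together with GFAP-Cre on a C57BL/6 background, so that the floxed allele is deleted where the GFAP promoter drives Cre, in the glial lineage, while the other cells, the leukocytes included, keep it. The sample titles call the first library control and the second FMC new, and as no other condition is given, both were treated as samples of 1 group and no test between conditions was made. The labels give the tissue as optic nerve, but the protocol they carry also names meningeal dura, collected separately, so the source of the leukocytes rests on the tissue label. Mice without a Nf1 mutation were not analysed here.

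Members of this receptor family deliver a second signal to T cells that have met antigen. The receptors recruit TRAF adaptors and activate NF-kB, which favours survival and further division, and several of them are also carried by regulatory T cells. Their ligands are mostly found on antigen-presenting cells: TNFSF4 binds TNFRSF4 (OX40), TNFSF9 binds TNFRSF9 (CD137), and CD70 binds CD27. CD40 is arranged the other way round, with the receptor on dendritic cells, B cells and macrophages and its ligand CD40LG on activated helper T cells, and TNFSF8 is the ligand of CD30.

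After filtering, 8834 cells of C-ON with a median of 6810.5 UMIs (unique molecular identifiers, each standing for 1 captured RNA molecule) and 16818 cells of FMC_new with a median of 4676 UMIs were kept. Cells formed 36 clusters that were named only from marker genes, with the 10 members kept out of the clustering, and names ending in "-like" are used for them. T cell-like clusters held 962 cells of C-ON and 3194 cells of FMC_new, and 70.7% of these cells fell into a gated subset. The libraries stood apart in what else they held, with 607 pituitary endocrine cell-like cells in FMC_new and 19 in C-ON, and with 2271 and 5360 oligodendrocyte-like cells. They shared 296 cell barcodes, of which 188 were kept.

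T cells with a UMI of Cd4 and none of Cd8a or Cd8b1 were divided by Foxp3, the transcription factor of regulatory T cells, into 25 and 126 Cd4+Foxp3+ cells (C-ON and FMC_new) and 159 and 578 Cd4+Foxp3- cells. T cells with a UMI of Cd8a or Cd8b1 and none of Cd4 were divided by Pdcd1, an inhibitory receptor of activated T cells, into 262 and 930 Cd8+Pdcd1+ cells and 222 and 612 Cd8+Pdcd1- cells. Dendritic cells (DC) were divided into 29 and 88 Ccr7+Fscn1+ cells, the state that migrates to lymph nodes, 115 and 486 cells with Xcr1 or Clec9a, and 150 and 502 Cd209a+ cells. A cell without a UMI of a gating gene may still express it. The 6 T cell markers Cd3d, Cd3e, Cd3g, Trac, Cd247 and Lck summed to between 3058 and 5330 CPM (a gene's UMIs relative to the subset's total in that library, in the usual unit of expression per library size) in the 4 T cell subsets and to between 47.2 and 219 CPM in the 3 dendritic cell subsets. Lyz2, H2-Aa, H2-Ab1, C1qa and Csf1r, genes of myeloid and antigen-presenting cells, summed to between 11710 and 29500 CPM in the dendritic cell subsets and to between 36.5 and 756 CPM in the T cell subsets. The clusters were named from the T cell markers and from other dendritic cell markers, so these sums describe the subsets and do not test them.

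The 10 genes lie on 6 chromosomes of the mouse genome (build GRCm38), and 4 of them on chromosome 4. Tnfrsf4 (chr4:156013843-156016612, plus strand, 7 exons) ends 9551 bases before Tnfrsf18 (chr4:156026164-156028895, plus strand, 5 exons) begins. Tnfrsf9 has 8 exons in its longest coding transcript (chr4:150914562-150946102, plus strand) and Tnfsf8 has 4 (chr4:63831308-63861347, minus strand). Tnfsf9 (chr17:57105325-57107757, plus strand) and Cd70 (chr17:57145997-57149777, minus strand), each of 3 exons, lie on chromosome 17. The remaining members are Cd27 (chr6:125232622-125237010, minus strand, 6 exons), Tnfsf4 (chr1:161395409-161418410, plus strand, 3 exons), Cd40 (chr2:165055627-165072948, plus strand, 9 exons) and Cd40lg (chrX:57212143-57224042, plus strand, 5 exons).

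The sequence before a RefSeq transcription start (build GRCm38.p6) was held for 5 of the 10 members, in 6 windows of 250 bases. It is printed for receptors of T cells, 5′ to 3′ on the strand of the gene: whole for Tnfrsf4, the first start of Tnfrsf9 and Cd27, whose windows are free of annotated exons, and as 30 bases around the NF-kB match for the second start of Tnfrsf9, whose window holds exon bases. Capitals mark matches to the core motifs of NF-kB, AP-1 (TGANTCA) and NFAT (GGAAAA), the factors downstream of the T cell receptor and of this receptor family, searched on both strands together with RUNX (TGTGGT) and forkhead (TGTTTAC).
Tnfrsf4, chr4:156013445-156013694, plus strand: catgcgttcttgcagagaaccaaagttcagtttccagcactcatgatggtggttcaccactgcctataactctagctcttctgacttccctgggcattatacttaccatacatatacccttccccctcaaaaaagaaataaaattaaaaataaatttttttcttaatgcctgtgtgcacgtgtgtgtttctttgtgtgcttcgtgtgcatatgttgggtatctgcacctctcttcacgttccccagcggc
Tnfrsf9, first start, chr4:150919905-150920154, plus strand: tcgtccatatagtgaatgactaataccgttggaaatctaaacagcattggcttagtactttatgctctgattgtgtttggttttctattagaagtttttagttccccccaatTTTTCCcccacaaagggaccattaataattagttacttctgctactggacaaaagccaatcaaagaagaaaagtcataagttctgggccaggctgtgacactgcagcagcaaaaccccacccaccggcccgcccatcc
Tnfrsf9, second start, chr4:150927949-150927978, plus strand: agcagctGGGGATTTCCCaggaggccctgc
Cd27, chr6:125237028-125237277, minus strand: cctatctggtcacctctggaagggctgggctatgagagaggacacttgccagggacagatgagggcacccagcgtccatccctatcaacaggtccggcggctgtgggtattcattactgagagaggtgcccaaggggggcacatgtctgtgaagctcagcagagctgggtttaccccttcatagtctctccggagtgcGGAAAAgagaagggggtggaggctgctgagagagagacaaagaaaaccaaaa

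The window of Tnfrsf4 held no match to any of these letters. The second start of Tnfrsf9 had overlapping NF-kB matches between 43 and 33 bases before the start. GGGGATTTCC read on the strand of the gene and GGGATTTCCC on both strands. An AP-1 match (TGAGTCA) lay between 15 and 9 bases before this start. The first start of Tnfrsf9 held an NFAT match read on the other strand (TTTTCC), Cd27 held 1 on its own strand and Tnfrsf18 held 1 on the other strand. Of the 32851 promoter windows of the same length, 7.25% held the NF-kB motif, 6.75% AP-1, 20.4% NFAT, 14.0% RUNX and 3.17% the forkhead motif. A match describes letters only, and binding was not measured.

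Of the gated subsets, Cd4+Foxp3+ T cells held the highest levels of Tnfrsf4 and Tnfrsf18, and Tnfrsf9 was found in most Cd4+Foxp3+ and most Cd8+Pdcd1+ cells. Tnfrsf4, a receptor of activated Cd4+ T cells, had 1606 CPM in C-ON and 1249 CPM in FMC_new in Cd4+Foxp3+ cells. It had 482 and 483 CPM in Cd4+Foxp3- cells, 102 and 130 CPM in Cd8+Pdcd1+ cells, and 8.0 and 45.1 CPM in Cd8+Pdcd1- cells. These 4 subsets stood in the same order in both libraries and their ranges did not overlap. Of Cd4+Foxp3+ cells, 90.1% had a UMI of Tnfrsf4 (95% interval 84.1 to 94.3), and of Cd4+Foxp3- cells 51% (47.3 to 54.7). In oligodendrocyte-like cells, which should lack it, 0.38% had one at a median of 7908 UMIs per cell, compared with a median of 3342 UMIs in Cd4+Foxp3+ cells.

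Tnfrsf9, a receptor that appears on T cells after activation, was at 914 CPM in C-ON and 677 CPM in FMC_new in Cd4+Foxp3+ cells and at 616 and 708 CPM in Cd8+Pdcd1+ cells, so these subsets overlapped. Cd4+Foxp3- cells had 79.7 and 142 CPM and Cd8+Pdcd1- cells 61.7 and 88.8 CPM, which overlapped as well and lay far below. A UMI of Tnfrsf9 was found in 72.8% of Cd4+Foxp3+ cells (65.0 to 79.8) and in 60.9% of Cd8+Pdcd1+ cells (58.1 to 63.7). The shares were 18.3% and 11.8% in the Foxp3- and Pdcd1- cells. Outside the T cells, 36.3% of the 402 natural killer (NK) cell-like cells had a UMI of Tnfrsf9, with 30.8% in C-ON and 38.6% in FMC_new, compared with 0.681% of oligodendrocyte-like cells.

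Tnfrsf18 (GITR), another receptor abundant on regulatory T cells, had 972 CPM in C-ON and 802 CPM in FMC_new in Cd4+Foxp3+ cells. It followed with 303 and 318 CPM in Cd4+Foxp3- cells, 156 and 172 CPM in Cd8+Pdcd1+ cells and 46.9 and 99.9 CPM in Cd8+Pdcd1- cells, without overlap. Its order over the 4 subsets was therefore the same as that of its neighbour on the chromosome, Tnfrsf4. Tnfrsf18 was also found in innate lymphocytes: 49% of the 96 ILC2-like cells had a UMI (291 and 228 CPM), whereas 4.17% had one of Tnfrsf4. NK cell-like cells had a UMI of Tnfrsf18 in 28.2% of cells in C-ON and 41.8% in FMC_new, and of Tnfrsf4 in 1.49% over both libraries. Plasma cell-like cells, at a median of 11443 UMIs, gave 11.5% for Tnfrsf18, 5.25% for Tnfrsf4 and 5.18% for Tnfrsf9.

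Cd27, a receptor that naive and memory T cells already carry, was spread more evenly. It had 206 CPM in C-ON and 257 CPM in FMC_new in Cd4+Foxp3+ cells, 182 and 186 CPM in Cd8+Pdcd1+ cells and 120 and 122 CPM in Cd8+Pdcd1- cells. Cd4+Foxp3- cells had 48.5 CPM in C-ON and 127 CPM in FMC_new, a range that spans the level of the Cd8+Pdcd1- cells. NK cell-like cells had a UMI in 28.9%, B cell-like cells in 2.28%, oligodendrocyte-like cells in 0.288% and plasma cell-like cells in 3.26%. None of the 26 Trdc+ cells had one, which allows a share of up to 11.5%.

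**Figure D1:**
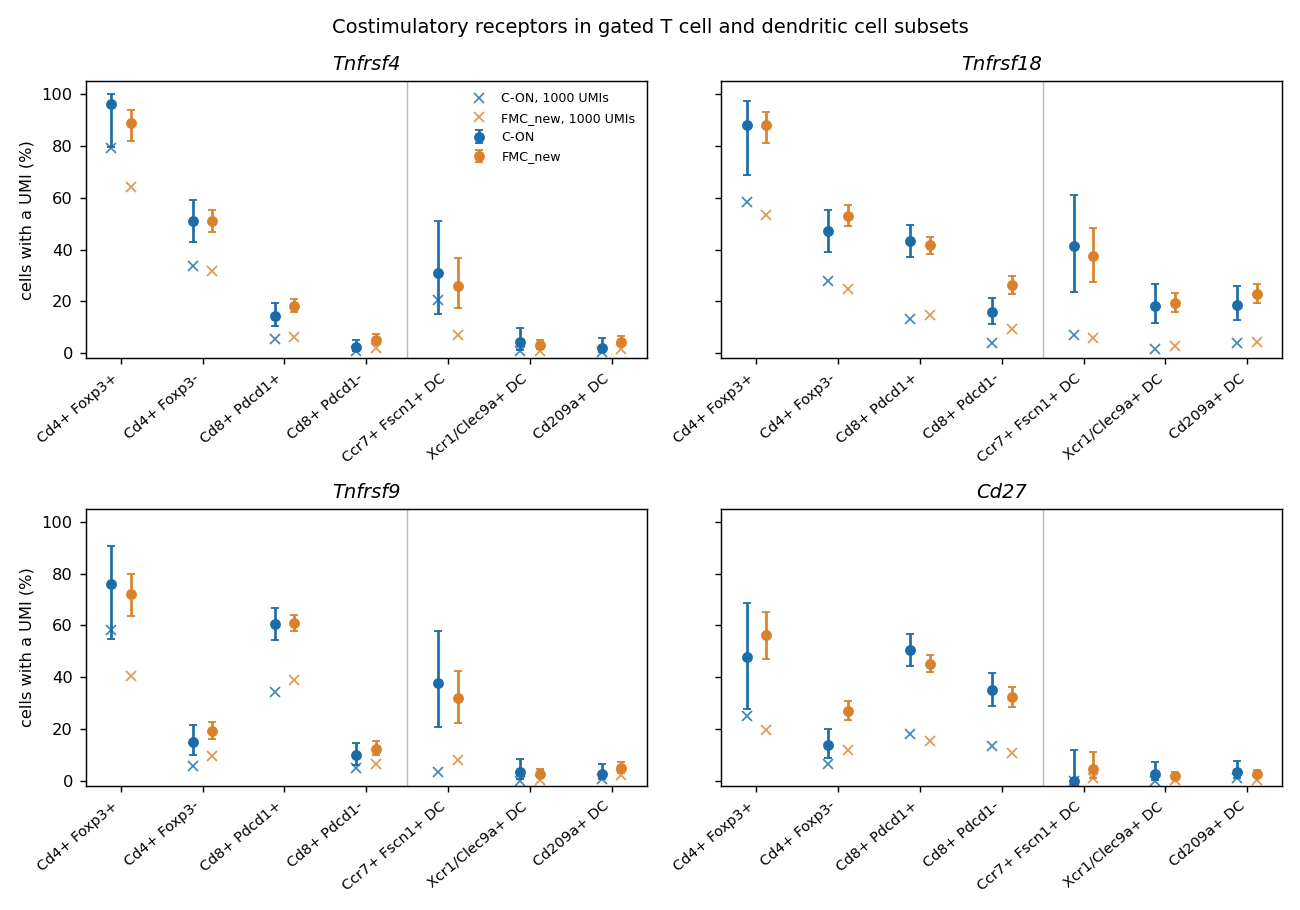
Percent of cells with at least 1 UMI of Tnfrsf4, Tnfrsf9, Tnfrsf18 and Cd27 (y axis) in each gated subset of T cells and dendritic cells (x axis), with a dot for each library, its exact 95% interval as a bar, and a cross for cells thinned to 1000 UMIs. Tnfrsf4 and Tnfrsf18 stand highest in Cd4+Foxp3+ cells (90.1% and 88.1% over both libraries), while Tnfrsf9 is high in Cd4+Foxp3+ and Cd8+Pdcd1+ cells.

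The 3 receptors Tnfrsf4, Tnfrsf9 and Tnfrsf18, each frequent by itself in Cd4+Foxp3+ cells, were also found together in these cells. Of 151 such cells, 100 (66.2%, 95% interval 58.1 to 73.7) had a UMI of all 3, with 76% in C-ON and 64.3% in FMC_new, and 3.97% had none. In Cd4+Foxp3- cells 10.0% had all 3 and 27.5% none, and in Cd8+Pdcd1+ cells 10.6% had all 3 and 26.1% none. Among Cd8+Pdcd1+ cells, 85.6% of those with a UMI of Tnfrsf4 also had Tnfrsf9, compared with 55.7% of those without. Cd27 was found in 52.6% of the Cd8+Pdcd1+ cells with Tnfrsf9 and in 36.7% of those without. Cells with more UMIs give more such pairs, and the part of depth in these shares was not tested. A share of all 3 receptors to be expected from their single shares was not computed.

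Of the ligands found in T cells, Cd40lg and Tnfsf8 were highest in Cd4+Foxp3- cells, and Tnfsf4 in Cd8+Pdcd1+ cells. Cd40lg, the ligand by which helper T cells act on CD40, had 353 CPM in C-ON and 273 CPM in FMC_new in these cells, where 52.2% and 43.8% of cells had a UMI. Its level was 8.0 and 12.1 CPM in Cd8+Pdcd1- cells, and 1.43% of Cd8+Pdcd1+ cells had a UMI. Cd4+Foxp3+ cells had 231 CPM in C-ON, where 28 UMIs came from 2 cells, and 60.1 CPM in FMC_new. T cell-like cells held 77.6% of the 1934 UMIs of Cd40lg in the series, and 0.157% of oligodendrocyte-like cells had one.

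Tnfsf8, the ligand of CD30, was found in the same subset, at 501 CPM in C-ON and 373 CPM in FMC_new in Cd4+Foxp3- cells (37.9% of cells over both libraries). Cd4+Foxp3+ cells had 65.9 and 49.7 CPM, Cd8+Pdcd1+ cells 44.4 and 71.8 CPM, and Cd8+Pdcd1- cells 11.4 and 33.5 CPM. The first 2 of these lower levels overlapped. Within the Cd4+Foxp3- cells, Tnfsf8 was found in 35.4% of cells with a UMI of Cd40lg and in 39.9% of cells without. Tnfrsf4 was found in 39.6% of the Cd4+Foxp3- cells with Cd40lg and in 60.6% of those without. This difference had the same direction in C-ON (43.4% and 59.2%) and FMC_new (38.3% and 60.9%). The Foxp3- gate may hold regulatory T cells without a UMI of Foxp3, and 90.1% of Cd4+Foxp3+ cells had Tnfrsf4 and 8.61% Cd40lg. The part of such cells in this difference was not tested.

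Tnfsf4, the ligand of TNFRSF4, was sparse, with 354 UMIs in all kept cells, of which 62.2% lay in T cell-like cells. Its T cell UMIs lay mostly in Cd8+Pdcd1+ cells, with 39.6 CPM in C-ON and 34.0 CPM in FMC_new, and 11.8% and 7.85% of cells had a UMI. In Cd8+Pdcd1- cells 1.32% had one, and none of the 151 Cd4+Foxp3+ cells did, which allows a share of up to 1.99%. On the presenting side, Ccr7+Fscn1+ DC had 24.6 and 15.2 CPM from 6 and 11 UMIs, and the 601 cells with Xcr1 or Clec9a had none. Only 2 of 7631 oligodendrocyte-like cells had a UMI.

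**Figure D2:**
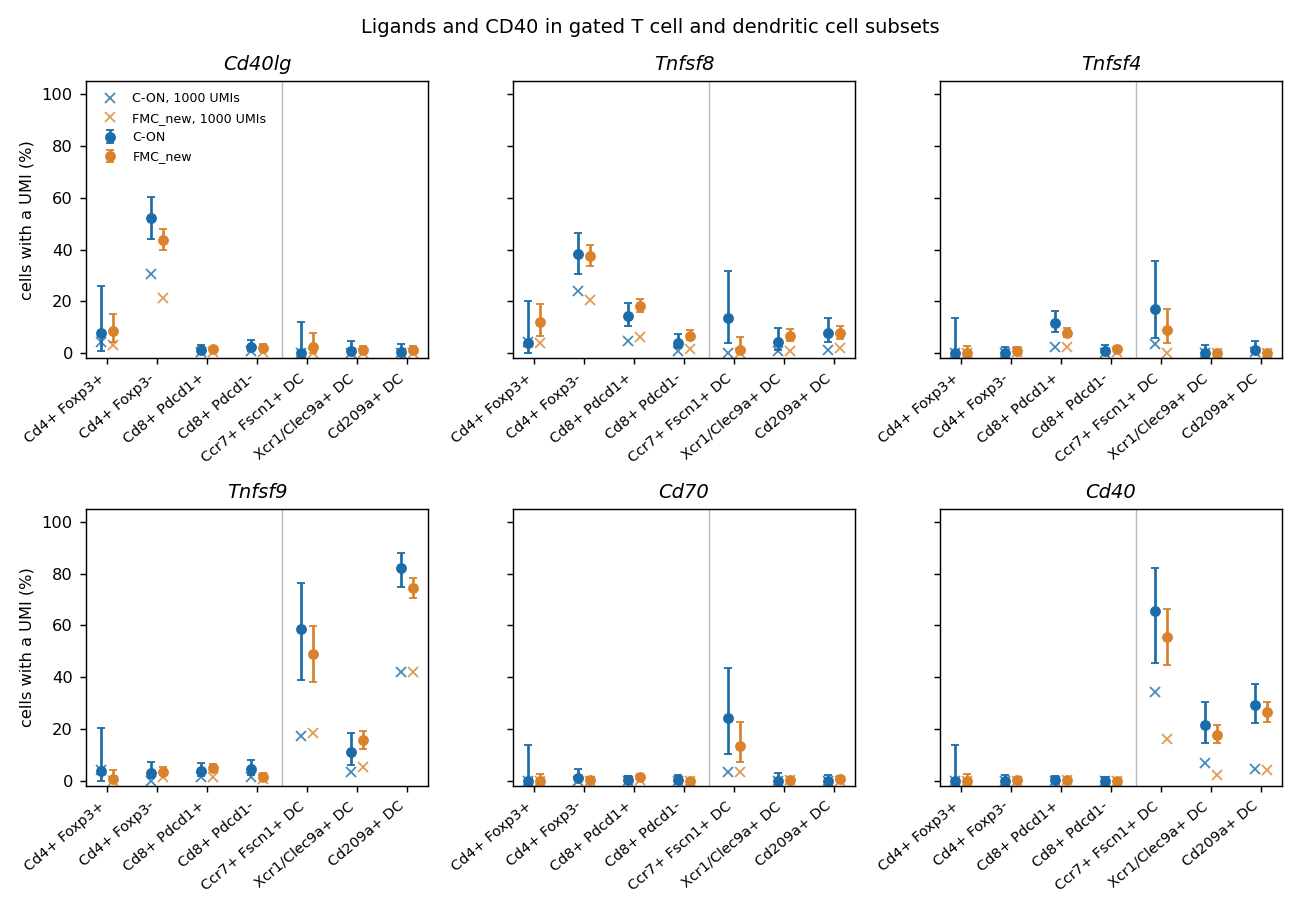
Percent of cells with at least 1 UMI of Cd40lg, Tnfsf8, Tnfsf4, Tnfsf9, Cd70 and Cd40 (y axis) in the same subsets (x axis), with dots for the libraries, exact 95% intervals as bars and crosses for cells thinned to 1000 UMIs. Cd40lg and Tnfsf8 stand highest in Cd4+Foxp3- cells (45.6% and 37.9% over both libraries), Tnfsf9 in Cd209a+ DC (76.2%), and Cd40 and Cd70 in Ccr7+Fscn1+ DC (58.1% and 16.2%).

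The ligands and the receptor of the presenting side divided between the dendritic cell subsets. Tnfsf9, the ligand of CD137, had 831 CPM in C-ON and 822 CPM in FMC_new in Cd209a+ DC, where 82% and 74.5% of cells had a UMI. Ccr7+Fscn1+ DC had 456 and 306 CPM and the cells with Xcr1 or Clec9a 55.3 and 71.7 CPM, so the 3 subsets did not overlap. The gate for Xcr1 or Clec9a was drawn inside all dendritic cell-like clusters. The type 1 dendritic cell-like clusters themselves had 21.9 CPM in C-ON and 11.1 CPM in FMC_new. Macrophage-like cells had 103 and 96.1 CPM. The type 2 dendritic cell-like clusters held 58.9% of the 7975 UMIs of Tnfsf9. By contrast, 3.46% of T cell-like, 4.84% of B cell-like and 4.65% of plasma cell-like cells had a UMI.

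Cd40, through which dendritic cells and B cells are activated, had 657 CPM in C-ON and 241 CPM in FMC_new in Ccr7+Fscn1+ DC, in 65.5% and 55.7% of cells. Cd209a+ DC had 60.1 and 60.0 CPM, the cells with Xcr1 or Clec9a 53.5 and 39.2 CPM, B cell-like cells 40.3 and 72.7 CPM, and macrophage-like cells 51.9 and 52.8 CPM, and these 4 ranges lay close to or within each other. Microglia-like cells had a UMI of Cd40 in 6.65%, T cell-like cells in 0.337% and oligodendrocyte-like cells in 0.249%. None of the 402 NK cell-like cells had one, which allows a share of up to 0.746%.

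Cd70, the ligand of CD27, was the rarest member, with 270 UMIs in all. Ccr7+Fscn1+ DC had 61.6 CPM in C-ON and 60.9 CPM in FMC_new, from 15 and 44 UMIs, and 24.1% and 13.6% of cells had one. Cd209a+ DC had no UMI in C-ON and 4 in FMC_new. In Ccr7+Fscn1+ DC, Cd40 was found in 73.7% of the 19 cells with Cd70, compared with 58.1% of all 117 cells of the subset. Tnfsf9 was found in 63.2% of the cells with Cd40 and in 34.7% of those without. The part of depth in these pairs was not tested.

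Cd70 was also found outside the leukocytes. The oligodendrocyte precursor (OPC)-like glioma class, 215 cells of C-ON and 1339 cells of FMC_new named by Pdgfra, Cspg5, Ptprz1, Vcan, Lhfpl3 and Olig1, held 112 of the 270 UMIs (41.5%), with 11 of 38 in C-ON, where Ccr7 dendritic cell-like cells held 14, and 101 of 232 in FMC_new, where those held 48. Its level was 8.77 CPM in C-ON and 13.4 CPM in FMC_new, and 5.12% and 6.72% of cells had a UMI. Of the 7631 oligodendrocyte-like cells, which have a higher median of UMIs (7908 and 5379), 2 had a UMI. In neuron-like cells 3 of 35 had a UMI of Cd70 in C-ON (8.57%, at the limit of 3 counts) and none in FMC_new. Tnfsf9 was likewise found in 18.6% and 24.5% of the OPC-like glioma cells, at 38.3 and 88.9 CPM. It was found in oligodendrocyte-like cells at 3.36 and 9.95 CPM. Over the 2 clusters of this class, Cd70 was found in 8.52% of cluster 8 and 1.73% of cluster 19, and Tnfsf9 in 27.3% and 15.2%. Of the 1554 cells, 826 also had at least 3 UMIs of leukocyte genes. Without these cells the shares were 5.9% for Cd70 and 21% for Tnfsf9. The name of the class rests on OPC genes alone, and whether its cells are tumour cells or resident OPCs was not tested.

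**Figure D3:**
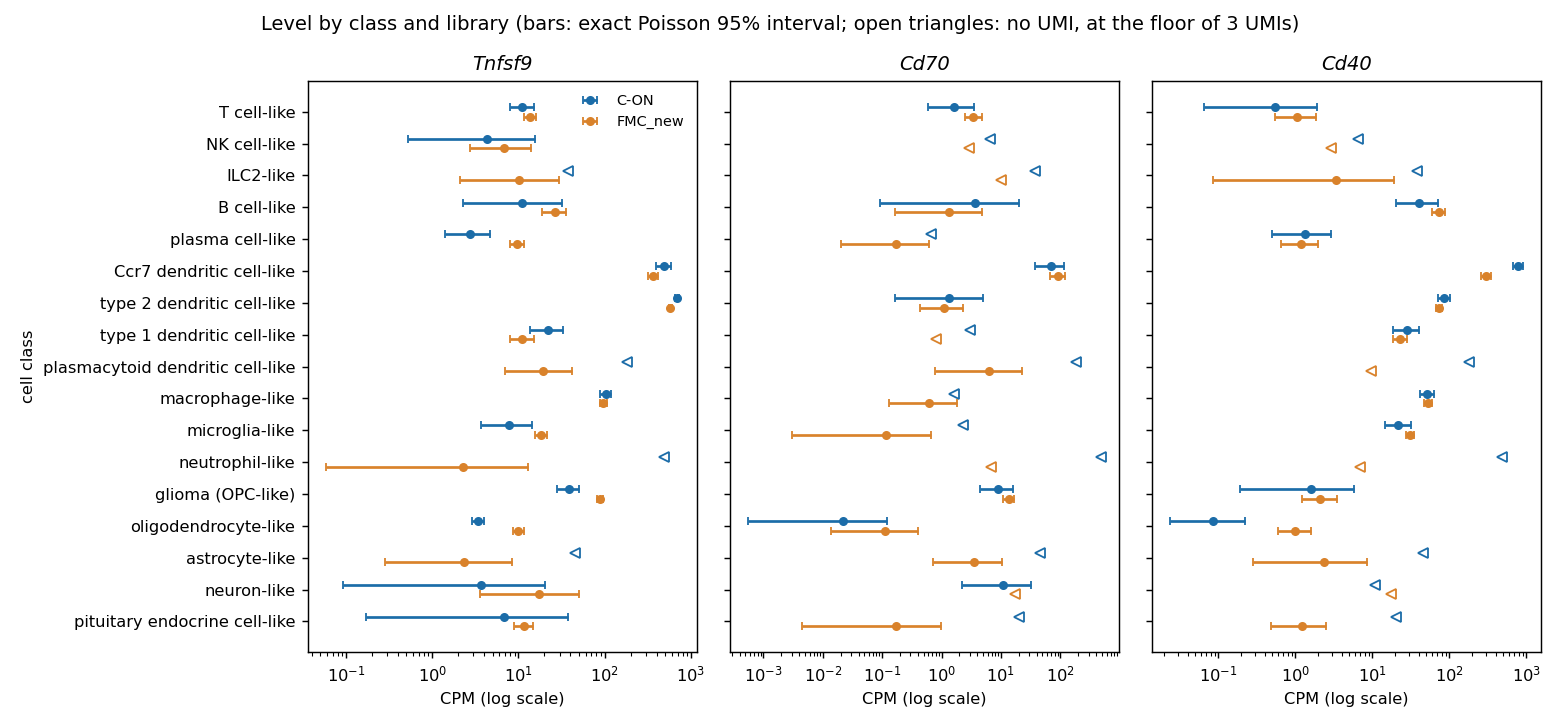
Levels of Tnfsf9, Cd70 and Cd40 in CPM on a log axis by cell class and library, with exact Poisson 95% intervals and an open triangle at 3 UMIs where a class had none. Tnfsf9 is highest in type 2 dendritic cell-like cells (687 and 578 CPM), Cd40 and Cd70 in Ccr7 dendritic cell-like cells, and the OPC-like glioma class shows Cd70 at 8.77 and 13.4 CPM.

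**Figure D4:**
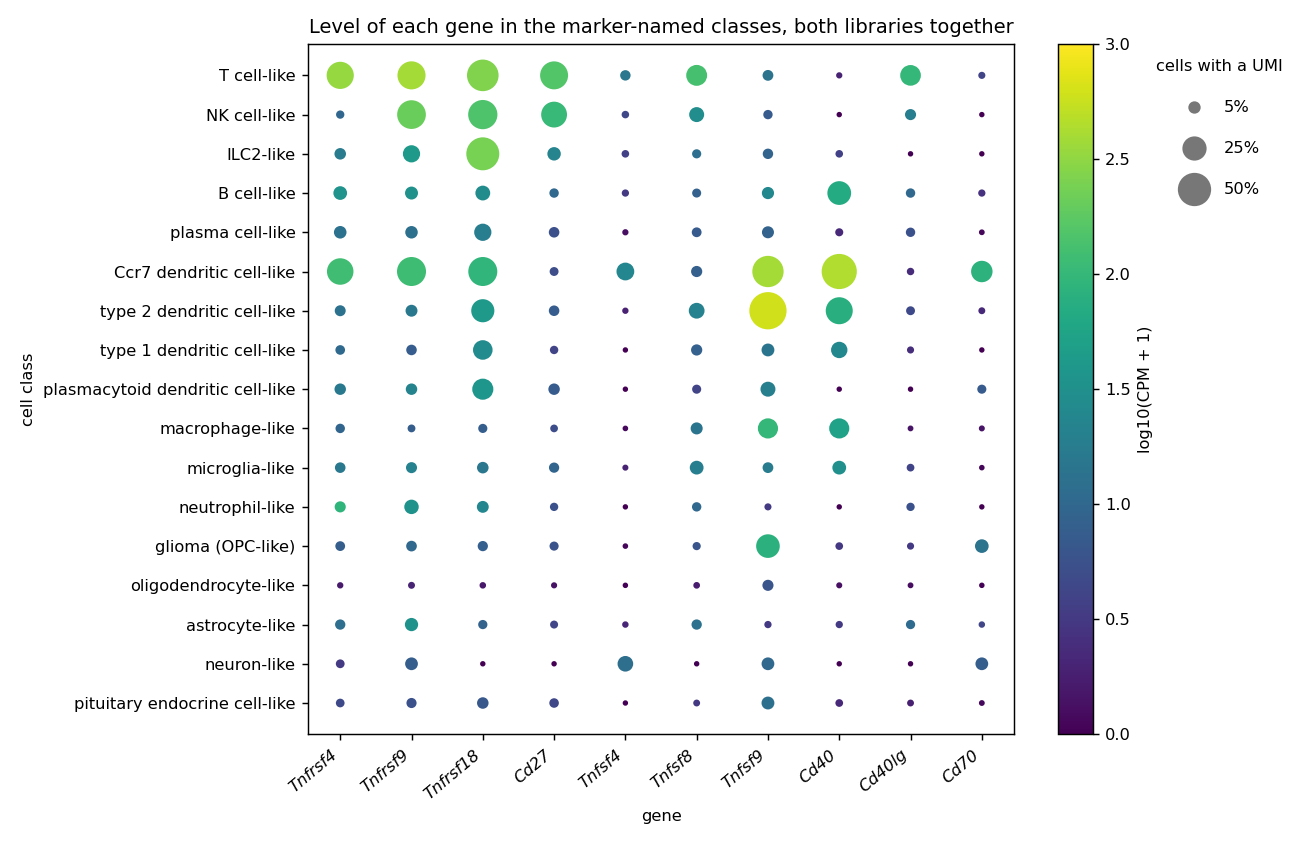
The 10 members (x axis) in 17 cell classes (y axis), both libraries together, where the size of a dot gives the percent of cells with a UMI and its colour the level as log10(CPM + 1). Tnfrsf4, Tnfrsf9, Tnfrsf18, Cd27, Cd40lg and Tnfsf8 fill the T cell-like line, where Cd40 is found in 0.337% of cells. Tnfsf9 and Cd40 are frequent in only some of the dendritic cell-like lines. They are found in 43.8% and 56.2% of Ccr7 dendritic cell-like cells. Plasmacytoid dendritic cell-like cells have Tnfsf9 in 8.16% and no UMI of Cd40.

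To ask which members differ between subsets, UMIs were summed per subset and library and compared with edgeR's quasi-likelihood test. The library was a block, and p-values were adjusted over all 10660 genes. Both sides of a comparison came from the same 2 pools, and the block takes out the mean difference between the libraries. The p-values thus measure how unevenly subsets differ between the 2 libraries, and not the spread between mice. This spread was estimated over all 7 subsets of T cells and dendritic cells together. In Cd4+Foxp3+ against Cd4+Foxp3- cells, 3 of 10 members passed, 2 higher and 1 lower, beside 1.07% of all genes (0.553% higher and 0.516% lower). Tnfrsf18 was higher by 1.36 on the log2 scale (SE 0.23, adjusted p = 0.00704), Tnfrsf9 was higher by 2.65 (SE 0.468, adjusted p = 0.0481), and Tnfsf8 fell by 3.15 (SE 0.562, adjusted p = 0.0447). The last 2 lie close to the threshold of 0.05, and over 8 alternatives Tnfrsf9 and Tnfsf8 passed in 5 each, with adjusted p up to 0.205 and 0.175 at a gate of at least 2 UMIs, where C-ON, with 11 Foxp3+ cells, was left out of that side.

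Tnfrsf4, which had the largest CPM difference, had a log2 difference of 1.41 (SE 0.437) with an adjusted p of 0.25, Cd27 one of 1.25 (adjusted p = 0.15) and Cd40lg one of -1.58 (adjusted p = 0.10), and these 3 did not pass. Over the 8 alternatives Cd40lg passed in 4, with -0.90 in C-ON and -2.25 in FMC_new taken alone, Cd27 passed in 2, with 1.78 and 0.94, and Tnfrsf4 in 1. Without the block for the library 29 genes were called in place of 114, and none of the 3 members passed. As a check of the gate, Il2ra, the high-affinity interleukin 2 receptor of regulatory T cells, was higher by 3.03 (adjusted p = 0.000768) and Ctla4 by 1.22 without passing (adjusted p = 0.12).

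In Cd8+Pdcd1+ against Cd8+Pdcd1- cells, 2 of 10 members passed, both higher, beside 2.45% of all genes (1.84% higher and 0.61% lower). Tnfrsf9 was higher by 3.03 (SE 0.461, adjusted p = 0.0143) and passed under all 7 alternatives, the highest adjusted p being 0.0423. Tnfrsf18 was higher by 1.04 (SE 0.234, adjusted p = 0.0248), with 1.75 in C-ON and 0.69 in FMC_new taken alone, and did not pass with DESeq2 or without the block, where its adjusted p reached 0.16. Tnfsf4 had a log2 difference of 2.57 (SE 0.735, adjusted p = 0.15), Tnfrsf4 one of 1.88 (adjusted p = 0.13) and Cd27 one of 0.53 (adjusted p = 0.63). Over the 7 alternatives Tnfsf4 passed in 3, with 3.76 in C-ON and 2.07 in FMC_new taken alone, and Tnfrsf4 in 2, with 3.59 and 1.43. Of the T cell markers themselves, Cd3g was higher by 0.74 (adjusted p = 0.0248), the other 5 did not pass, and the 6 summed to 4373 and 5330 CPM in Pdcd1+ and 3058 and 3978 CPM in Pdcd1- cells. The part of these markers in the results was not tested. Without the block 54 genes were called in place of 261.

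Between the 2 subsets without the gating gene, Cd4+Foxp3- and Cd8+Pdcd1-, 4 of 10 members passed, all higher on the Cd4 side, beside 3.35% of all genes (2.34% higher and 1.01% lower). Cd40lg was higher by 4.65 (SE 0.416, adjusted p = 7.55e-05), Tnfsf8 by 4.02 (SE 0.489, adjusted p = 0.00275), Tnfrsf4 by 3.89 (SE 0.507, adjusted p = 0.00506) and Tnfrsf18 by 1.91 (SE 0.238, adjusted p = 0.000185). All 4 passed under each of the 8 alternatives. The size depended on the library: Tnfrsf4 was higher by 5.75 in C-ON and by 3.25 in FMC_new, and Tnfsf8 by 5.33 and 3.30. Tnfrsf9, with a log2 difference of 0.43 (adjusted p = 0.84), and Cd27, with one of -0.56 (adjusted p = 0.56), did not pass. This comparison shares the Cd4+Foxp3- cells with the first and the Cd8+Pdcd1- cells with the second. Leaving out Cd4+ cells with a UMI of Pdcd1 as well gave 229 calls over all genes in place of 357, and without the block there were 136.

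**Figure D5:**
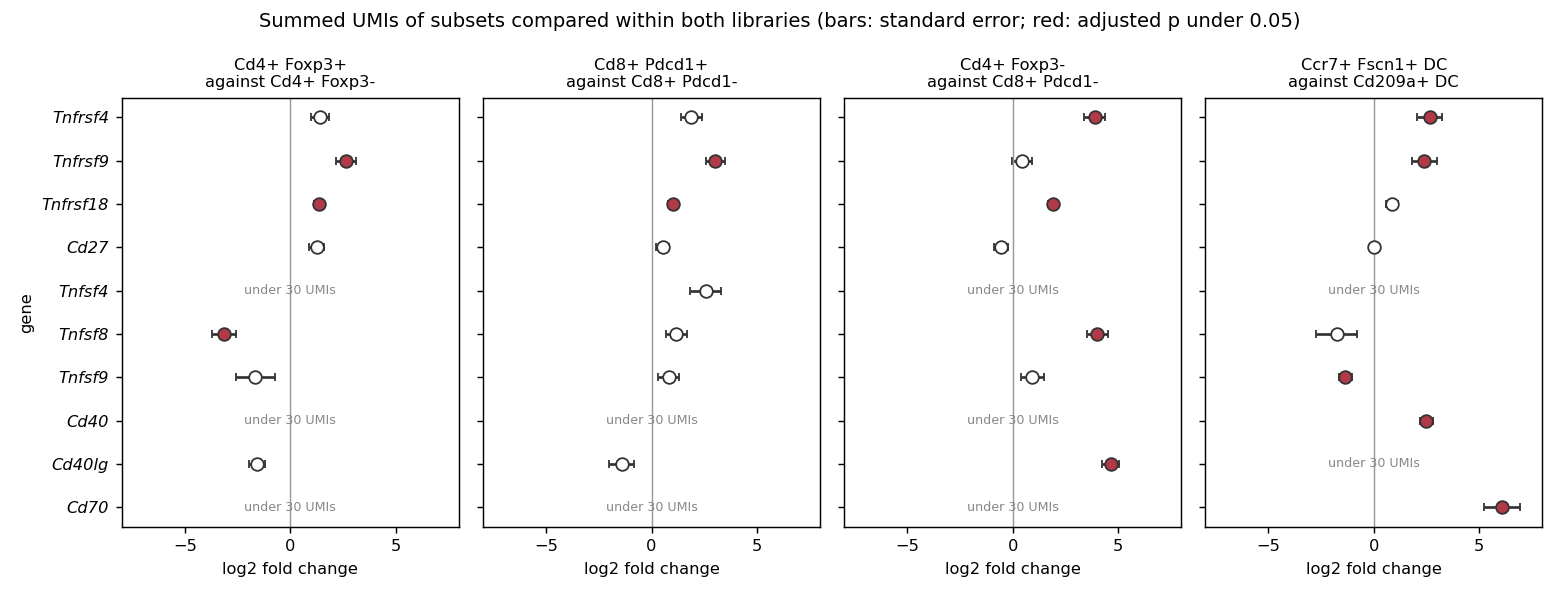
Log2 fold changes of the 10 members (y axis) in the 4 comparisons between subsets, with standard errors as bars and adjusted p under 0.05 in red, from edgeR's quasi-likelihood test. Members with under 30 UMIs in a comparison are named as such. Tnfrsf9 is red in the Foxp3, Pdcd1 and dendritic cell comparisons, and Cd40lg is farthest to the Cd4 side at 4.65.

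In Ccr7+Fscn1+ against Cd209a+ DC, 5 of 10 members passed, 4 higher and 1 lower, beside 16.9% of all genes (7.2% higher and 9.68% lower), so that a call is less rare here than in the T cells. Cd40 was higher by 2.49 (SE 0.29, adjusted p = 7.47e-05), with 3.18 in C-ON and 1.76 in FMC_new taken alone. Cd70 passed with an adjusted p of 0.000137 from 59 UMIs against 4, and its fitted size rests on those 4 UMIs. In the other subsets of the fit it reached at most 6.18 CPM. It therefore passed the filter on low counts only through Ccr7+Fscn1+ DC, the subset where it is high. Its place among the 5 members that passed is thus no independent result. Tnfsf9 fell by 1.35 (SE 0.316, adjusted p = 0.0141), though its adjusted p was 0.0639 with DESeq2 and it did not pass without the block. The receptors Tnfrsf4 and Tnfrsf9 were higher by 2.64 (SE 0.595, adjusted p = 0.0194) and 2.40 (SE 0.579, adjusted p = 0.0259), from 115 and 78.9 CPM against 12.2 and 13.4 CPM, and from 61.6 and 101 CPM against 15.0 and 14.0 CPM. Tnfrsf9 did not pass at a cluster resolution of 1.5 (adjusted p = 0.0561).

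As the receptors are T cell genes, the T cell markers were read beside them. The 6 markers summed to 201 and 219 CPM in Ccr7+Fscn1+ DC and to 148 and 170 CPM in Cd209a+ DC, none of the 6 passed, and 1 of the 6 was at 0 in the Ccr7+Fscn1+ DC of C-ON. With dendritic cells left out that had at least 2 UMIs of Cd3d, Cd3e, Cd3g or Trac, Tnfrsf4 and Tnfrsf9 passed too. Cells with 1 such UMI stayed in. Icos, a T cell gene outside these 6 markers, passed as higher in Ccr7+Fscn1+ DC. The part of T cell RNA in the levels of Tnfrsf4 and Tnfrsf9 was not tested. Tnfrsf18 had a log2 difference of 0.86 (adjusted p = 0.0504) and Tnfsf4 one of 3.40 from 17 UMIs (adjusted p = 0.0603).

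The rest of the pathway was read from a list of 25 genes, of which 23 were tested. In the Foxp3 comparison 1 of 23 passed, beside 1.07% of all genes: Cd86, a ligand of CD28 and CTLA4, which fell (adjusted p = 0.00478) from 17 and 59 UMIs (29.4 and 30.7 CPM) to 1 UMI in each library, so that its size rests on 2 UMIs in Cd4+Foxp3+ cells. In the Pdcd1 comparison 2 of 23 passed, both higher, beside 1.84% of all genes that were higher: Cd160, an inhibitory receptor, by 1.15 (adjusted p = 0.00773) and Cd80, another CD28 ligand, by 2.23 (adjusted p = 0.00141). The medians of the list were -0.15 and 0.26 on the log2 scale, and those of all genes -0.04 and -0.03.

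In the Cd4 against Cd8 comparison 7 of 23 were higher and 1 lower, beside 2.34% and 1.01% of all genes. Higher were the receptors Tnfrsf25 (by 2.79, adjusted p = 0.0465), Btla (by 1.87, adjusted p = 0.000185) and Icos (by 1.23, adjusted p = 0.00243), and in the NF-kB branch Nfkb1 (by 1.31, adjusted p = 0.00188), Birc3, Nfkbia and Relb. Cd160 fell by 2.59 (adjusted p = 6.83e-05). The median of the list was 0.71, and that of all genes -0.06. Cd28 had a log2 difference of 0.74 (adjusted p = 0.09).

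Between the dendritic cell subsets 10 of 23 were higher in Ccr7+Fscn1+ DC and 2 lower, beside 7.2% and 9.68% of all genes, with a list median of 0.55 and a median of all genes of -0.13. Relb, a subunit of non-canonical NF-kB, the branch that CD40 engages, had 563 and 406 CPM against 73.3 and 61.9 CPM and was higher by 2.62 (adjusted p = 2.33e-07). Nfkb2 was higher by 1.76 (adjusted p = 0.000166), the kinase Map3k14 by 1.36 (adjusted p = 0.00172) and Birc2 by 1.93 (adjusted p = 4.06e-06). The adaptors Traf3, Traf1 and Traf2 were higher by 1.97 (adjusted p = 9.56e-05), 1.48 (adjusted p = 0.00017) and 1.11 (adjusted p = 0.0488). Cd80 and Cd86, the costimulatory ligands of CD28, were higher by 1.15 and 0.55. Icos, a costimulatory receptor of the CD28 family that T cells carry, was higher by 1.59. The part of T cell RNA in the level of Icos was not tested. Traf5 fell by 1.22 (adjusted p = 0.01) and Tnfaip3, an inhibitor of NF-kB signalling, fell by 0.86 (adjusted p = 0.00557).

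The genes whose levels were most like those of each member were found over 24 units of class and library with at least 50 cells, by Pearson's r of log2(CPM + 1) among 14980 genes. These units share libraries and differ in depth, so r is a description. Cd27 was most like Sh2d2a (r = 0.982), Tnfrsf18 like Pkp3 (0.961) and Icos (0.949), Tnfrsf9 like Pglyrp2 (0.937) and Il18r1 (0.932), and Tnfrsf4 like Cd6 (0.859). Cd40lg was most like Cd3e (0.92), Tnfsf8 like Fam78a (0.879), Cd40 like Ifi30 and Batf3 (0.906 each), Tnfsf9 like Gm15156 (0.886) and Cd70 like Nudt17 (0.925). Tnfsf4 was most like another member, Tnfrsf9 (0.849). Among pairs of members, r was highest for Tnfrsf9 with Cd27 (0.915) and with Tnfrsf18 (0.899).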

How the data were processed

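Both libraries hold gene expression of single cells by the 10x Genomics 5′ kit. The authors aligned the reads to the mouse genome (mm10, which is GRCm38) and made UMI counts per gene and cell barcode with Cell Ranger, and deposited these counts without normalization. The file header names Cell Ranger 7.2.0, and the submitters' processing notes name Seurat 5 and 5.2.1.

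Barcodes with 500 to 5000 genes, 500 to 20000 UMIs and under 5% mitochondrial UMIs were kept (81.5% in C-ON, 78.8% in FMC_new). Seurat 5.3.0 (R 4.3.3) normalized and integrated the libraries, with 2000 variable features without the 10 members, 30 components and a resolution of 0.8. A cluster was named from at least 3 of its markers, each in at least 20% of cells and at 2 times the mean of clusters, and clusters led by another class or by cell cycle genes stayed unnamed. How leading genes count was settled after they were seen. Doublets were not removed, since Scrublet called 1 of 8834 and 0 of 16818 cells and so had not worked. As an addition chosen after seeing the data, cells with markers of another lineage were left out. Gates inside T cell-like and dendritic cell-like clusters used no member.

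Shares have exact Clopper-Pearson and levels exact Poisson 95% intervals, which cover counting error only, and the limit for a count of 0 is 3 counts. For equal depth, 25040 cells were thinned to 1000 UMIs, leaving out 612. The 14 sums of 7 subsets (at least 20 cells per library, so without Trdc+ cells) were fitted with edgeR 4.0.16 (quasi-likelihood, library as a block, 6 residual degrees of freedom, Benjamini-Hochberg adjustment over 10660 genes). Sums of the same library deviated together (r of library differences between subsets from 0.132 to 0.787). On simulated counts for the Foxp3 comparison with 10090 genes, 69% of 4-fold and 4% of 2-fold changes were recovered with 3 false calls. The simulation gave all subsets the same mean levels, a fixed spread and no difference between libraries. The changed genes were drawn from the more highly expressed ones. Recovery and false calls in the real sums may therefore differ. Alternatives were DESeq2 1.42.0, RLE factors, no filter, no block, stricter gates, other resolutions and each library alone. Shares and levels were computed in Python 3.11.15 (scanpy 1.11.5, pandas 2.3.3, scipy 1.17.1, numpy 2.4.6). Sequences are from RefSeq (GRCm38.p6) and gene coordinates from GENCODE. The members, the pathway list and the gates were chosen with earlier results of these data known. The genes named are the members, the listed pathway and gating genes, and the genes most like each member.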

Additional observations from a re-analysis of the deposited data

Results flagged for a closer look

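The 1480 barcodes with more than 20000 UMIs (583 in C-ON and 897 in FMC_new, median 24542.5 UMIs), which the filter removed and which enter no comparison, held UMIs of every member above the limit of 0.203% that a count of 0 allows. Tnfrsf18 was found in 15.8% of them, Tnfsf9 in 8.99%, Tnfrsf9 in 7.97%, Tnfrsf4 in 6.96% and Cd27 in 6.76%. Lower shares were found for Cd40 (5.14%), Tnfsf8 (5.07%), Cd40lg (2.36%), Tnfsf4 (1.28%) and Cd70 (1.22%). Barcodes of such depth pass this limit easily. In CPM, every member lay below its level in the kept cells in both libraries. Tnfrsf18 had 5.71 CPM in C-ON and 14.8 CPM in FMC_new in these barcodes, and 19.1 and 49.4 CPM in the kept cells. Cell classes were not assigned to these barcodes.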

How the results depend on the processing

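Thinning every cell to 1000 UMIs lowered each share: Tnfrsf4 66.7%, Tnfrsf18 54%, Tnfrsf9 43.3% and Cd27 20.7% in Cd4+Foxp3+ cells, Cd40lg 23.5% and Tnfsf8 21.3% in Cd4+Foxp3- cells, Tnfrsf9 37.9% and Tnfsf4 2.28% in Cd8+Pdcd1+ cells, Cd40 20.7% and Cd70 3.45% in Ccr7+Fscn1+ DC, Tnfsf9 41.9% in Cd209a+ DC, 7.18% in OPC-like glioma cells (Cd70 1.14%) and 6.75% in macrophage-like cells, Cd40 6.05% in B cell-like, Tnfrsf18 26.6% in ILC2-like and Tnfrsf9 14.7% in NK cell-like cells. Without C-ON and without FMC_new the shares were 88.9% and 96% (Tnfrsf4), 88.1% and 88% (Tnfrsf18), 72.2% and 76% (Tnfrsf9) and 56.4% and 48% (Cd27) in Cd4+Foxp3+ cells, 43.8% and 52.2% (Cd40lg) and 37.7% and 38.4% (Tnfsf8) in Cd4+Foxp3- cells, 61% and 60.7% (Tnfrsf9) and 7.85% and 11.8% (Tnfsf4) in Cd8+Pdcd1+ cells, 55.7% and 65.5% (Cd40) and 13.6% and 24.1% (Cd70) in Ccr7+Fscn1+ DC, 74.5% and 82% (Tnfsf9) in Cd209a+ DC, 24.5% and 18.6% (Tnfsf9) and 6.72% and 5.12% (Cd70) in OPC-like glioma cells, 24.8% and 18.4% (Cd40, B cell-like), 50.7% and 44.4% (Tnfrsf18, ILC2-like), 38.6% and 30.8% (Tnfrsf9, NK cell-like) and 15.5% and 19.6% (Tnfsf9, macrophage-like).

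A gate of at least 2 UMIs gave 97.2% (Tnfrsf4), 94.4% (Tnfrsf18) and 78.9% (Tnfrsf9) in Cd4+Foxp3+ and 69.0% (Tnfrsf9) in Cd8+Pdcd1+ cells. Other limits, resolutions, T cells by UMIs alone or cells without markers of another lineage moved Tnfrsf18 in Cd4+Foxp3+ cells to 88.2%, 86.3%, 86.9%, 87.4% and 87.5%, Tnfsf8 in Cd4+Foxp3- cells (limits aside) to 36.8%, 36.8%, 37.0% and 36.4%, and Tnfrsf9 in Cd8+Pdcd1+ cells to 61.8%, 60.4%, 60.3%, 60.2% and 60.2%. T cells by UMIs alone gave 76.0% for Tnfrsf9 in Cd4+Foxp3+ cells, a Foxp3- gate also without Il2ra and Ikzf2 gave 53.3% (Cd40lg) and 33.1% (Tnfsf8), and wider limits gave 13.4% for Cd40 in B cell-like cells.

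Calls over all genes in the Foxp3, Pdcd1 and Cd4 against Cd8 comparisons (114, 261 and 357) were 390, 520 and 648 with no filter, and 29, 54 and 136 without the replicate block. In the Foxp3 comparison they were 43 at a gate of at least 2 UMIs (398 in the Pdcd1 comparison), 245 at resolution 1.5 and 237 with the stricter Foxp3- gate. Leaving out Pdcd1 on the Cd4 side, chosen after seeing the data, gave 229. With DESeq2, 66 genes were higher and 37 lower in the Foxp3 comparison (59 and 55 with edgeR) and 731 and 621 between dendritic cells (767 and 1032). Tnfsf9, which did not pass in the Foxp3 comparison, had a log2 difference of -1.66, with 0.35 in C-ON alone and -3.02 in FMC_new alone. The cause of these changes was not tested. A doublet caller gave no usable value, and resolution 0.4 gave no ILC2-like class. A 2-fold change was rarely recovered on simulated counts, so members that did not pass may still differ.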

Other observations

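Cluster 24, with 339 cells led by cell cycle genes and therefore left without a name, held the T cell receptors of the family: a UMI of Tnfrsf18 was found in 45.7% of its cells, of Tnfrsf9 in 36.0%, of Tnfrsf4 in 31.9% and of Cd27 in 22.4%. Tnfsf9 was found in 18.9% of them, Tnfsf8 in 16.8% and Cd40lg in 11.2%. In cluster 18, unnamed because it held markers of both oligodendrocytes and T cells, Tnfrsf9 was found in 26.0% of cells.

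The 4 T cell-like clusters differed among themselves. Tnfrsf4 (78.7%) and Tnfrsf18 (71.0%) were most frequent in cluster 7, Tnfrsf9 (78.2%) and Tnfsf4 (12.0%) in cluster 10, and Cd40lg was found in 24.9% of cluster 3. In the neutrophil-like class, 39 UMIs of Tnfrsf4 in FMC_new came from 5 cells. Tnfsf4 was found in 5 of 55 neuron-like cells.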
